A study of Mus musculus with 6 samples.

Results

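The miR-7 family of the mouse was examined in retinoic acid-induced N2a neuroblastoma cells treated with RSL3, a compound that triggers ferroptosis. Members were taken by name from the listed mature miRNAs: miR-7a-5p, miR-7b-5p and every listed 3p entry whose name begins with miR-7a- or miR-7b-. The rule found 4 members among 685 listed mature miRNAs, listed as mmu-miR-7a-5p, mmu-miR-7b-5p, mmu-miR-7a-1-3p and mmu-miR-7a-2-3p and written without the species prefix from here on. The rule uses names and no measured value, although it was set with earlier results of these data known.

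The RSL3 group held 3 libraries from N2a cells given 5 µM RSL3 for 24 h, and the DMSO group held 3 libraries from N2a cells given the solvent. All 6 samples had first received 10 µM retinoic acid over 96 h, which drives this line towards a neuronal form, so no group shows the cells without retinoic acid. RSL3 inhibits GPX4, the enzyme that reduces lipid peroxides in membranes, and the iron-dependent death that follows is called ferroptosis. N2a is a single tumour line, and the miRNA tables hold no measure of lipid peroxidation or of cell survival.

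miR-7 is an ancient miRNA enriched in neurons and in endocrine cells such as those of the pancreatic islets and the pituitary. In mouse brain it takes part in a circuit of noncoding RNAs: the circular RNA Cdr1as carries many miR-7 sites, miR-671 directs cleavage of Cdr1as, and the long noncoding RNA Cyrano triggers destruction of miR-7. In human cells miR-7 represses the mRNA of alpha-synuclein, a presynaptic protein that aggregates in Parkinson's disease.

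The mature sequences show how far reads of the members can be told apart, and are given from the RefSeq table of build GRCm38.p6 with the seed, bases 2 to 8 counted from the 5′ end, in capitals.
miR-7a-5p: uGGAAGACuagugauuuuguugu
miR-7b-5p: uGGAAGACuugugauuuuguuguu
miR-7a-1-3p: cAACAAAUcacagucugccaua
miR-7a-2-3p: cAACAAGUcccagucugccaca
miR-7b-3p: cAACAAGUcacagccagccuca
The 5p members share their seed and 22 of 23 compared bases. Counted from 1 at the 5′ end, with the base of miR-7a-5p first, they differ by A10U, and miR-7b-5p has 1 more U at its 3′ end. A single base therefore separates most of their reads, and how reads matching both were handled is not given in the sources used here. miR-7a-1-3p and miR-7a-2-3p differ at A7G, A10C and U21C, with the base of miR-7a-1-3p first. The A7G difference lies in the seed, so the 3p members have different seeds. miR-7b-3p is printed because it has the seed of miR-7a-2-3p. It was not among the listed miRNAs and so could not be analysed. Among 1679 mature sequences of the RefSeq table, the seed of the 5p members occurred in no other miRNA, and 554 of the 685 listed entries could be matched to that table.

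The hairpins show that miR-7a-5p can come from either of 2 precursors while each 3p entry belongs to 1. Capitals mark the 5p and then the 3p mature miRNA within each RefSeq hairpin.
mir-7a-1: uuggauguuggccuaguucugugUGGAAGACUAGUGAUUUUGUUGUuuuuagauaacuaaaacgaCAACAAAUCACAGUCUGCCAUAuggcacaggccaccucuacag
mir-7a-2: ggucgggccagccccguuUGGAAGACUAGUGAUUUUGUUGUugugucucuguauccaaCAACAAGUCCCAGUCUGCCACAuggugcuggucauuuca
mir-7b: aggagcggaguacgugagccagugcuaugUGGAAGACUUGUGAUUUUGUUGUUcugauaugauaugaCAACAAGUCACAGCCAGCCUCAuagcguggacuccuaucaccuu
In both miR-7a hairpins the base after the annotated 5p end is U, so a miR-7a-5p read that is 1 base longer ends like miR-7b-5p and A10U remains the difference between them. On GRCm38.p6, mir-7a-1 lies at chr13:58392779-58392886 on the minus strand, in an intron of each of the 12 Hnrnpk transcripts that span it and on the same strand as that gene. Hnrnpk encodes an RNA-binding protein of the nucleus. mir-7a-2 lies at chr7:78888277-78888373 and mir-7b at chr17:56242988-56243098, both on the plus strand, and the GENCODE M21 annotation has no other gene over either hairpin. Named here with the miR-7 circuit, miR-3529-5p and miR-3529-3p come from a precursor antisense to mir-7a-2, and neither was listed.

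The deposited values were CPM over the listed miRNA reads after TMM scaling, edgeR's correction for differences in library make-up. The recovered read totals ran from 3406276 to 4989380 in RSL3 libraries and from 4306460 to 6058006 in DMSO libraries, and 1 read was worth 0.157 to 0.314 CPM. All 6 neuronal marker miRNAs fixed for the check were listed and none passed the test described below, which called 0.751% of all tested miRNAs. Their summed level was 5898 to 8556 CPM in RSL3 libraries and 5226 to 7137 CPM in DMSO libraries, with miR-9-5p the highest. Of 25 markers of other cell types, 21 were listed and none passed the test. With so few miRNAs called, these counts say nothing particular about the markers. miR-142a-3p and miR-223-3p of blood and miR-141-3p and miR-205-5p of epithelium were not listed. The 5 listed blood and immune markers summed to 134 to 201 CPM in RSL3 libraries and 120 to 153 CPM in DMSO libraries. The 4 listed epithelial markers summed to 362 to 450 CPM in RSL3 libraries and 398 to 462 CPM in DMSO libraries. The highest of these 4 was miR-203-3p, at a mean of 401 CPM over the 6 libraries. The 5 endothelial and fibroblast markers summed to 2148 to 2281 CPM in RSL3 libraries and 2321 to 2693 CPM in DMSO libraries, without overlap, as for 24.3% of single tested miRNAs. Its members went both ways: miR-126a-3p was higher in every RSL3 library, while miR-126a-5p, miR-199a-5p and miR-145a-5p were lower in every one and miR-199a-3p overlapped. The 3 muscle markers summed to 68.8 to 129 CPM in RSL3 libraries and 105 to 193 CPM in DMSO libraries. All had a negative log2 fold change, as did 49.8% of tested miRNAs. miR-133a-3p, at a mean of only 3.09 CPM over the 6 libraries, did not overlap, as for 24.3% of tested miRNAs. The part of these differences in the miR-7 values was not tested.

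miR-7a-5p was among the most abundant miRNAs of these cells and its difference between RSL3 and DMSO cells stayed within the spread of the libraries. Its level was 212526, 169263 and 163393 CPM in RSL3 libraries 1 to 3, against 191420, 216323 and 267327 CPM in DMSO libraries 1 to 3. The groups overlapped, because RSL3 library 1 lay above DMSO library 1, while RSL3 libraries 2 and 3 lay below all DMSO libraries. The means were 181728 ± 26833 CPM in RSL3 cells and 225023 ± 38694 CPM in DMSO cells (SD, n = 3 each). The log2 fold change of log2(CPM + 1), RSL3 over DMSO, was -0.30 with a standard error of 0.19. limma, a linear model with variances moderated across all 666 tested miRNAs, gave a Benjamini-Hochberg adjusted p of 0.41, so miR-7a-5p did not pass the threshold of 0.05. The 95% interval of the fold ran from 0.614-fold to 1.07-fold, so these libraries leave room for a level well below that of DMSO cells. Nothing in the labels states that the 3 libraries of a group are separate cultures, so the spread behind each p-value may be only technical. In bulk RNA, fewer cells with miR-7 and less miR-7 per cell cannot be told apart.

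miR-7b-5p, the paralog from mir-7b, showed a similar order of libraries at a lower level. It had 30343, 22880 and 23400 CPM in RSL3 libraries 1 to 3, against 26341, 30368 and 35743 CPM in DMSO libraries 1 to 3. Here too RSL3 library 1 reached into the DMSO range and RSL3 libraries 2 and 3 lay below it. miR-7b-5p averaged 25541 ± 4167 CPM in RSL3 cells and 30817 ± 4717 CPM in DMSO cells (SD, n = 3 each). Its log2 fold change was -0.27 with a standard error of 0.16, a 95% fold interval of 0.653 to 1.05 and an adjusted p of 0.39 from limma. With the values rescaled to the signal outside the miR-7 family, the log2 fold changes were -0.47 for miR-7a-5p (limma, unadjusted p 0.031, adjusted p 0.19) and -0.44 for miR-7b-5p (unadjusted p 0.027, adjusted p 0.18), where the median of all miRNAs was -0.15. Without DMSO library 3 the log2 fold changes were -0.17 for miR-7a-5p and -0.16 for miR-7b-5p, and without RSL3 library 1 they were -0.42 (limma, unadjusted p 0.040, adjusted p 0.23) and -0.40 (unadjusted p 0.024, adjusted p 0.16). Quantile normalization gave -0.15 for miR-7a-5p (adjusted p 0.70, limma) and -0.41 for miR-7b-5p (unadjusted p 0.0037, adjusted p 0.10). That method gives each entry the value of its rank. miR-7a-5p ranked 1st or 2nd in every library, so its -0.15 reflects only its order with the other leading miRNA. miR-7b-5p ranked 9th in every RSL3 library, so its RSL3 values had no spread there and its p-values cannot weigh the difference.

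The 3p entries, the strands that are mostly discarded, were rare and did not separate the groups either. miR-7a-1-3p had 26.7, 32.6 and 26.1 CPM in RSL3 libraries, against 28.1, 38.0 and 24.6 CPM in DMSO libraries, from 104 to 179 reads. The highest and the lowest value both belonged to DMSO libraries. Its log2 fold change was -0.07 with a standard error of 0.19, a 95% interval of -0.48 to 0.34 on the log2 scale and an adjusted p of 0.87 (limma). miR-7a-2-3p had 4.83, 3.77 and 4.41 CPM in RSL3 libraries, against 4.23, 4.00 and 5.90 CPM in DMSO libraries, from 12 to 30 reads. With so few reads, counting error alone spans much of this range, and the groups overlapped. The log2 fold change of miR-7a-2-3p was -0.09 with a standard error of 0.24, a 95% interval of -0.60 to 0.42 and an adjusted p of 0.86 (limma).

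In all, 0 of 4 members passed the adjusted threshold, where limma called 0.751% of the 666 tested miRNAs, 4 higher (0.601%) and 1 lower (0.15%). At an unadjusted p under 0.05, 0 of 4 members were called, against 17.3% of all tested miRNAs. Both 5p members passed it when rescaled, where miR-7a-5p ranked 108th and miR-7b-5p 99th of 666 miRNAs by p. They also passed it without RSL3 library 1, ranking 116th and 100th of 651, so many other miRNAs had a smaller p at both settings. miR-7b-5p passed it under quantile normalization, where its RSL3 values had no spread. edgeR and DESeq2 on the recovered reads called 0 members, with no adjusted p from DESeq2 for miR-7a-2-3p. No member separated the groups without overlap, which 24.3% of tested miRNAs did. All 4 members had a negative log2 fold change, as did 49.8% of tested miRNAs, and the sign turned for miR-7a-1-3p without DMSO library 2 and for miR-7a-2-3p without DMSO library 3.

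**Figure D1:**
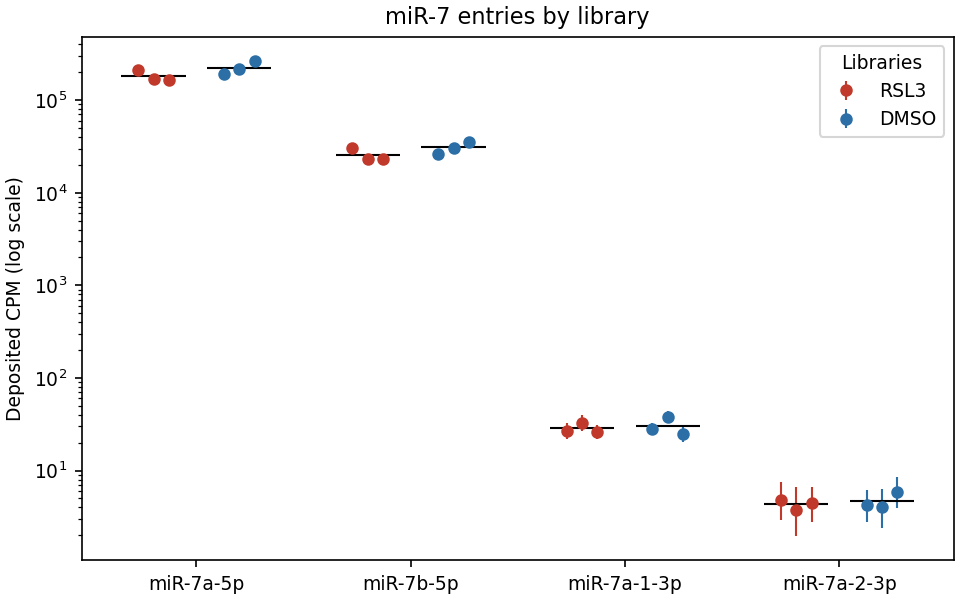
Deposited CPM (log axis) of the 4 miR-7 entries, with 1 point per library, RSL3 in red and DMSO in blue, a line at each group mean and bars for the 95% Poisson counting interval. The groups overlap in every entry, and the 5p entries stand far above the 3p entries.

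**Figure D2:**
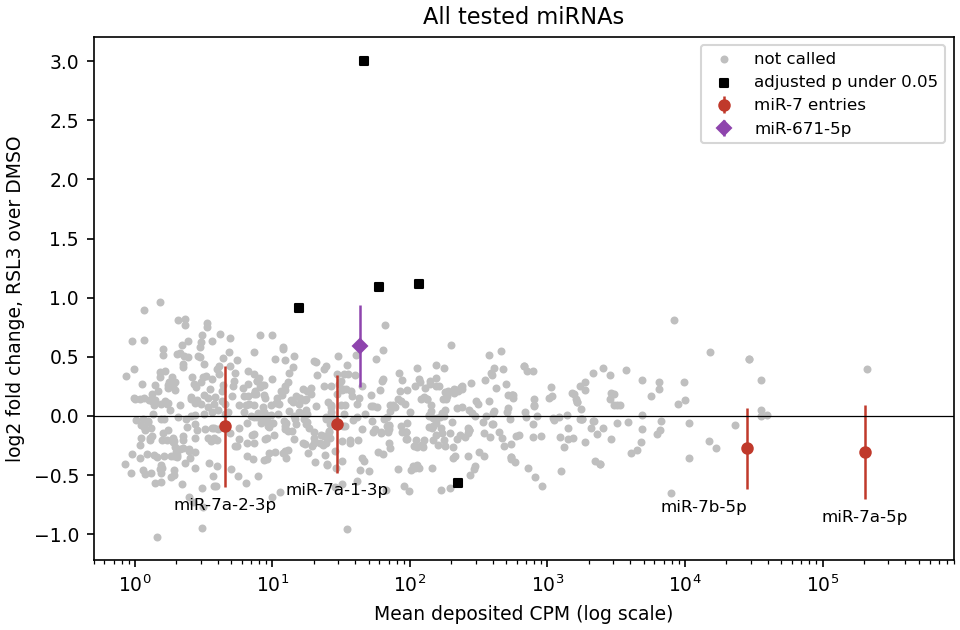
log2 fold change, RSL3 over DMSO, against mean deposited CPM (log axis) for the 666 tested miRNAs, with 95% limma intervals on the miR-7 entries (red) and miR-671-5p (purple), and black squares for the 5 called miRNAs. The intervals of all 4 miR-7 entries include 0, and that of miR-671-5p does not.

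Levels between different miRNA sequences are affected by how well each one takes the adapters, so the order that follows is that of the read signal. miR-7a-5p held 21.3%, 15.8% and 16.3% of the signal in RSL3 libraries 1 to 3, against 20.2%, 22.6% and 25.9% in DMSO libraries 1 to 3. It ranked first or second in every library, first in RSL3 library 1 and in DMSO libraries 2 and 3. The other leading miRNA was miR-881-3p, from a cluster on the X chromosome, with a mean over the 6 libraries of 209293 CPM against 203375 CPM for miR-7a-5p. The order of these means differed between the groups. miR-881-3p averaged 239957 ± 61750 CPM in RSL3 cells, above miR-7a-5p, and 178630 ± 18004 CPM in DMSO cells, below miR-7a-5p (SD, n = 3 each). RSL3 library 1 and DMSO library 1 had the opposite order to their groups, and the ranges of both miRNAs overlapped in each group. The next entry, miR-465c-5p, averaged 39575 CPM, and its highest library lay below the lowest of miR-7a-5p. The share of miR-7b-5p was 3.04%, 2.14% and 2.34% in RSL3 libraries and 2.77%, 3.18% and 3.46% in DMSO libraries. miR-7b-5p ranked 9th in the 3 RSL3 libraries and 5th to 7th in the DMSO libraries. By mean over the 6 libraries it stood between miR-467b-5p, of the Sfmbt2 cluster, at 29371 CPM and miR-470-5p, of an X-linked cluster, at 22985 CPM. Its order with miR-467b-5p differed between the groups. miR-467b-5p had 31957, 37157 and 33625 CPM in RSL3 libraries 1 to 3, each above miR-7b-5p. In DMSO libraries 1 to 3 it had 25178, 25487 and 22822 CPM, each below miR-7b-5p. The groups of miR-467b-5p did not overlap, as for 24.3% of tested miRNAs, while those of miR-7b-5p overlapped. The 4 members together held 24.4%, 18.0% and 18.7% in RSL3 libraries and 22.9%, 25.8% and 29.3% in DMSO libraries. Exact binomial 95% intervals of the 5p shares reached at most 0.041 percentage points to either side, and cover counting error only.

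The balance between the near-identical 5p paralogs moved far less than their levels. miR-7b-5p made up 12.5%, 11.9% and 12.5% of the summed 5p reads in RSL3 libraries 1 to 3, against 12.1%, 12.3% and 11.8% in DMSO libraries 1 to 3. The highest share was 1.06 times the lowest over all 6 libraries, while the highest level was 1.64 times the lowest for miR-7a-5p and 1.56 times for miR-7b-5p. The mean shares were 12.3% ± 0.35 in RSL3 cells and 12.1% ± 0.26 in DMSO cells (SD, n = 3 each), and the groups overlapped. miR-7a-5p had 6.98 to 7.48 reads for each miR-7b-5p read. How many reads were counted for the wrong paralog cannot be seen in the deposited values.

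The 3p entries, unlike miR-7a-5p, name their precursor, and most of their reads came from mir-7a-1, the hairpin inside Hnrnpk. miR-7a-1-3p held 84.7%, 89.7% and 85.5% of the summed miR-7a 3p reads in RSL3 libraries 1 to 3, against 86.9%, 90.5% and 80.6% in DMSO libraries 1 to 3. Exact binomial 95% intervals were 77.1% to 90.5% in RSL3 library 1 and 73.5% to 86.5% in DMSO library 3, the library with the lowest share. The groups overlapped, with means of 86.6% ± 2.66 in RSL3 cells and 86.0% ± 4.98 in DMSO cells (SD, n = 3 each). The share describes the 3p strands that were kept, and does not divide the miR-7a-5p reads between the hairpins.

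**Figure D3:**
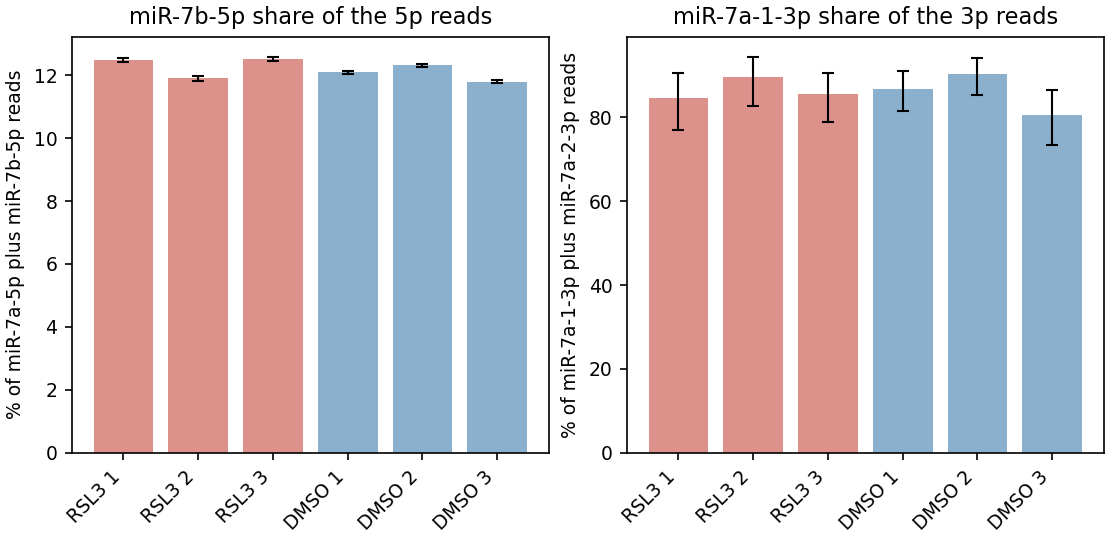
Share of miR-7b-5p in the summed 5p reads (left, percent) and of miR-7a-1-3p in the summed miR-7a 3p reads (right, percent), with 1 bar per library, RSL3 libraries left of DMSO libraries, and exact binomial 95% intervals. The 5p share stays between 11.8% and 12.5% in all 6 libraries, and the 3p share between 80.6% and 90.5%.

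Among miRNAs with both arms listed and past the filter, miR-7a was strongly one-sided towards its 5p arm. miR-7b-5p and miR-881-3p have no such pair and do not enter this comparison. There were 7964, 5187 and 6268 miR-7a-5p reads per miR-7a-1-3p read in RSL3 libraries 1 to 3, against 6824, 5700 and 10866 in DMSO libraries 1 to 3. The highest ratio, in DMSO library 3, joined the highest 5p level to the lowest 3p level. For miR-7a-2-3p the ratio ran from 37036 to 44950 in RSL3 libraries and from 45239 to 54147 in DMSO libraries. These ranges did not overlap, nor did the log2 ratios of that pair, as for 23.7% of arm pairs tested, and the nearest libraries of the groups were 44950 and 45239. Of 219 arm pairs tested, that of miR-7a-2 had the highest mean log2 ratio of 5p to 3p, at 15.16, and that of miR-7a-1 ranked 3rd at 12.71, behind miR-218-2 at 12.80. Both arms had to pass the filter, so a very high ratio needs an abundant 5p arm. miR-7a-5p averaged 203375 CPM, against 39575 CPM for miR-465c-5p, the next 5p entry, so these ranks partly restate its level. The + 1 in the log2 values lowers the ratio where the 3p entry is rare. Both miR-7a pairs use the same 5p entry, which adds the output of 2 hairpins, so each ratio overstates that of a single hairpin. With the arms of hairpins that share an entry added up, a step chosen after seeing the data, miR-7a ranked 2nd of 203 at 12.50, behind miR-21a at 12.67.

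The arm balance did not pass the test between the groups. The log2 ratio of 5p to 3p changed by -0.24 (SE 0.25, 95% interval -0.78 to 0.30) for miR-7a-1 and by -0.22 (SE 0.17, 95% interval -0.58 to 0.15) for miR-7a-2, RSL3 minus DMSO. limma over the 219 pairs gave adjusted p-values of 0.65 for miR-7a-1 and 0.51 for miR-7a-2, where 2.28% of pairs were called. Without DMSO library 3 the change for miR-7a-1 was 0.03, with the opposite sign.

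**Figure D4:**
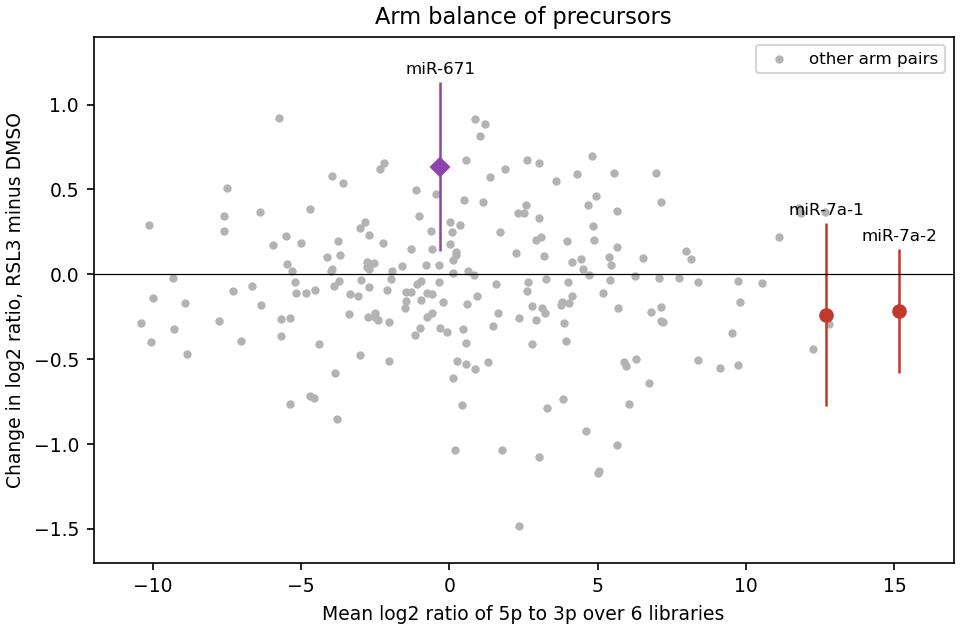
Change in the log2 ratio of 5p to 3p, RSL3 minus DMSO, against the mean log2 ratio over 6 libraries for 219 arm pairs, with 95% limma intervals on the miR-7a pairs (red) and miR-671 (purple). The miR-7a pairs lie at the far right, at 12.71 and 15.16, with intervals that include 0.

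The profile of miR-7a-5p over the 6 libraries was closest to that of miR-7b-5p. Likeness was measured as the root-mean-square difference of log2(CPM + 1) values, each miRNA centred on its own mean, among miRNAs with a mean of at least 100 CPM. The difference was 0.04 between miR-7a-5p and miR-7b-5p, the smallest of 226, against a median of 0.29 for the other 225 miRNAs. After its paralog, the miRNAs closest to miR-7a-5p were miR-669o-5p, of the Sfmbt2 cluster, at 0.10, miR-145a-3p at 0.11, miR-450a-5p at 0.11, let-7g-5p at 0.12 and miR-598-3p at 0.12. The list for miR-7b-5p shared miR-669o-5p, miR-145a-3p, miR-450a-5p and miR-598-3p and held miR-130b-5p, at 0.11, in place of let-7g-5p. miR-669o-5p had 201, 162 and 174 CPM in RSL3 libraries and 206, 233 and 246 CPM in DMSO libraries, so RSL3 libraries 2 and 3 were again its lowest. miR-881-3p had its highest value, 302102 CPM, in RSL3 library 2, against 163655 CPM, its lowest, in DMSO library 2. All entries of a library share its depth and scaling, so the distances over these 6 points are a description only. miR-7a-1-3p lies below that minimum. Among 416 miRNAs with a mean of at least 10 CPM it ranked 265th in likeness to miR-7a-5p, at 0.35, beyond the median of 0.30.

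**Figure D5:**
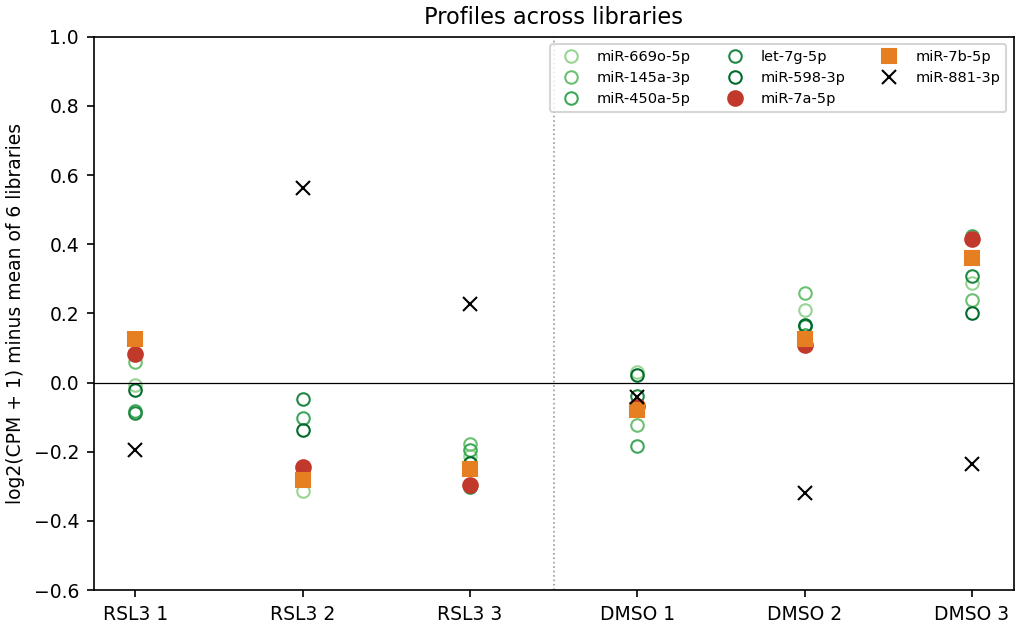
log2(CPM + 1) minus each miRNA's mean over the 6 libraries, by library, for miR-7a-5p, miR-7b-5p, the 5 other miRNAs closest to miR-7a-5p and miR-881-3p, with RSL3 libraries left of the dotted line and DMSO libraries right of it. The miR-7 points coincide, lowest in RSL3 libraries 2 and 3 and highest in DMSO library 3.

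Around miR-7, the miRNA of its circuit that cleaves Cdr1as was higher in every RSL3 library, without passing the test. The mature miRNA is shown from RefSeq, with its seed in capitals, because its seed differs from that of miR-7.
miR-671-5p: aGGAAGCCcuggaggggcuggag
miR-671-5p had 55.2, 50.5 and 50.9 CPM in RSL3 libraries 1 to 3, against 35.9, 39.3 and 28.7 CPM in DMSO libraries 1 to 3. The groups did not overlap, as for 24.3% of tested miRNAs. The log2 fold change was 0.59 with a standard error of 0.16, a 95% interval of 0.24 to 0.94 and an adjusted p of 0.073 (limma). DESeq2 on the recovered reads gave an adjusted p of 0.024, in a fit that called 19 miRNAs higher and 21 lower, against 4 and 1 with limma. No other alternative called miR-671-5p, and its adjusted p ran from 0.024 to 0.37 over the alternatives. The other arm, miR-671-3p, showed -0.05 on the same log2 scale, with an adjusted p of 0.90 (limma). The log2 ratio of miR-671-5p to miR-671-3p averaged 0.004 ± 0.12 in RSL3 cells and -0.63 ± 0.37 in DMSO cells (SD, n = 3 each), a change of 0.63 with a standard error of 0.23 and an adjusted p of 0.15 (limma over 219 pairs). Cdr1as and Cyrano are not miRNAs and were not analysed here.

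miRNAs that share a tissue or a target with miR-7 were counted by the same test, which called 0.751% of all tested miRNAs. Of 12 miRNAs named as enriched in islets and neuroendocrine cells, 6 were listed, 0 were called and the median log2 fold change was 0.09, against 0.0013 over all tested miRNAs. The most abundant were miR-375-3p, which restrains insulin secretion in islets, and miR-184-3p. miR-375-3p averaged 255 ± 35.8 CPM in RSL3 cells and 214 ± 7.06 CPM in DMSO cells (SD, n = 3 each), with a log2 fold change of 0.24 and an adjusted p of 0.33 (limma), and its libraries did not overlap, as for 24.3% of tested miRNAs. miR-184-3p averaged 243 CPM in RSL3 cells and 232 CPM in DMSO cells. Of 8 miRNAs reported with miR-7 on human alpha-synuclein mRNA, 7 were listed, 0 were called and the median log2 fold change was 0.12. Its most abundant members were the p53-induced miR-34c-5p, at 130 ± 24.3 CPM in RSL3 cells and 106 ± 8.85 CPM in DMSO cells, and miR-34b-5p, at 48.7 ± 10.9 CPM in RSL3 cells and 40.4 ± 6.51 CPM in DMSO cells (SD, n = 3 each). The libraries of miR-34c-5p did not overlap, as for 24.3% of tested miRNAs, and its adjusted p was 0.33 (limma). Over these lists and the miR-671 pair, 0 of 15 miRNAs were called, a count that says nothing particular about them.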

How the data were processed

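Small RNA libraries of 3 RSL3 and 3 DMSO samples of N2a cells were analysed. Reads were handled with cutadapt, Bowtie and edgeR against GRCm38, per the submitters' processing notes, which as used here state no order, version or setting. The deposited values are a normalised signal per mature miRNA, named CPM by the authors. All values (100%) were whole multiples, within 0.01, of the worth of 1 read. The reads recovered this way gave TMM factors of 0.936 to 1.05 that account for the deposited scaling, where plain CPM had been assumed. Chi-square tests of the reads, divided by their degrees of freedom, gave 73.0 to 257 between libraries of a group, a spread beyond counting error. Each library was counted as its own sample, although this spread does not show whether the libraries are separate cultures. No column was left unused (0). Reads outside the listed miRNAs are not seen, so a change in total miRNA per cell would not show.

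With R 4.3.3, limma 3.58.1 was fitted to log2(CPM + 1) with a mean-variance trend, two-sided, with Benjamini-Hochberg adjustment at 0.05. miRNAs with 1 CPM in at least 3 libraries were tested, 666 of 685. The + 1 understates changes of low miRNAs. Arm ratios were tested alike for 219 pairs with both arms past that filter. edgeR 4.0.16 and DESeq2 1.42.0 on the recovered reads, other pseudocounts, filters, scalings and variance models, the replicate number as a block and each library left out were alternatives. Shares with entries that share reads counted once were added after seeing the data. The fits were checked on simulated data. Levels, shares and intervals were computed with Python 3.11.15.

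Members and lists were chosen with earlier results of these data known. Named were all members, miRNAs of the same seed, the called and the 2 most abundant miRNAs of each list, the 5 closest profiles and the neighbours in abundance of the 5p members.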

Additional observations from a re-analysis of the deposited data

How the results depend on the processing

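No miR-7 member passed the threshold under any alternative run. Over 21 settings each, the log2 fold change stayed negative, from -0.47 to -0.15 for miR-7a-5p (lowest adjusted p 0.19, limma) and from -0.44 to -0.16 for miR-7b-5p (lowest adjusted p 0.10). The -0.15 and the adjusted p of 0.10 came from quantile normalization, which keeps only the ranks of these entries. Among the other settings the nearest values were -0.17 for miR-7a-5p and an adjusted p of 0.16 for miR-7b-5p (limma). Signs turned for miR-7a-1-3p at 0.10 without DMSO library 2 (from -0.20 over the libraries left out), for miR-7a-2-3p at 0.057 without DMSO library 3 (from -0.18) and for the miR-7a-1 arm ratio at 0.025 without DMSO library 3 (from -0.43). They also turned for miR-184-3p, at -0.10 rescaled without miR-7, -0.0034 without RSL3 library 2 and -0.019 without DMSO library 2 (up to 0.14 over the libraries left out), and for miR-671-3p, at 0.030 without RSL3 library 2 and 0.026 without DMSO library 3. The causes were not tested.

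Counts of called miRNAs moved more. Against 4 higher and 1 lower, plain CPM gave 2 higher, a 10 CPM filter 3 lower, median centring 0 lower, rescaling without miR-7 31 lower and without the 5 most abundant miRNAs 12 lower. No trend gave 1 higher and 0 lower, edgeR 2 lower, and DESeq2 19 higher and 21 lower. Leaving out a library gave 1 to 14 higher, the most without RSL3 library 2, and 0 to 12 lower, the most without RSL3 library 1. List miRNAs called numbered 1 with DESeq2 (miR-671-5p). Marker miRNAs called numbered 2 rescaled without miR-7, 1 rescaled without the 5 most abundant, 2 with DESeq2 and 0 to 1 without a library. Against 0 arm pairs called toward 5p and 5 toward 3p, there were 4 toward 5p and 12 toward 3p with a pseudocount of 5, 3 and 8 with both arms at 10 CPM, and 1 to 5 toward 3p without a library. The cause was not tested in each case.

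Same-numbered libraries did not deviate together (r = -0.35, -0.33 and -0.19 over 666 miRNAs). With 3 libraries per group, each centred on its group mean, these values cannot decide whether the numbers pair them. The replicate block gave 1 higher and 0 lower, and adjusted p-values of 0.64 for both 5p members.

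Without the 5 most abundant other miRNAs, shares in RSL3 and DMSO libraries were 28.7% and 34.0% for miR-7a-5p, 4.03% and 4.66% for miR-7b-5p, 0.00452% and 0.00462% for miR-7a-1-3p, and 0.000686% and 0.000711% for miR-7a-2-3p. The smaller total raises them by construction. With a 10 CPM minimum, 3 of the 5 closest profiles to miR-7a-5p and 2 of 5 to miR-7b-5p were kept. miR-7a-2-3p was not tested at that filter, and DESeq2 gave it no adjusted p. At 12 to 30 reads, counting error limits it.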
